A study of Mus musculus with 10 samples.

Results

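The genes *Mafa*, *Pdx1*, *Nkx6-1* and *Nkx2-2* encode transcription factors that set and keep the identity of pancreatic beta-cells, and they were picked by name from the 230 genes of the deposited table, where all 4 were found. MIN6N8 cells, an insulin-secreting mouse insulinoma line, received either PBS as vehicle or IL-22 at 100 ng/mL by the labels, and the study's methods state a lower dose. Both groups were held in medium with 5.5 mM glucose for the 4 h of treatment, and each has 5 libraries of mRNA numbered 1 to 5. The labels do not say whether the libraries came from separate cultures, so the p-values measure the spread between these libraries only. The study describes its samples of this experiment as independent, and states a larger number of them than the libraries used here. A single tumor line was used, and no primary islet was sequenced.

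Beta-cell identity rests on a small network of DNA-binding factors that act together on the insulin gene and on one another. *Pdx1*, a homeodomain factor, is needed for the pancreas to form and later drives insulin transcription. *Nkx6-1* and *Nkx2-2*, which also encode homeodomain factors, hold the beta-cell fate and keep the programs of other islet cells silent. *Mafa* encodes a basic leucine zipper activator of the insulin gene that comes on late, as beta-cells mature. IL-22 signals through the receptor subunit IL-22RA1 to JAK kinases and the transcription factor STAT3.

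Each gene in the deposited table had a false discovery rate (FDR) below 0.05 in the authors' own comparison. The table therefore holds genes that had already been selected for a difference between these libraries, and the tests of the members are lenient for that reason. Other genes were not analysed here. The libraries held between 23685882 and 35785875 counted reads. Expression is given as CPM, the reads counted on a gene scaled to a common total of counted reads in the library. Every member was deeply covered, with no fewer than 1097 reads in a library (*Mafa*, PBS library 2) and up to 6400 (*Pdx1*, PBS library 1). At 1097 reads, counting error alone is 3.02% of the value. The PBS libraries varied by 19.3% (coefficient of variation) for *Mafa*, 10.3% for *Nkx6-1*, 7.02% for *Nkx2-2* and 5.98% for *Pdx1*. The spread between libraries, and not the depth, thus set the precision.

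*Mafa* (ENSMUSG00000047591.5) is a gene of 1 exon on the minus strand of mouse chromosome 15, from 75745490 to 75748228 (GRCm38, which the submitters' processing notes name as mm10). *Pdx1* (ENSMUSG00000029644.7) has 2 exons on the plus strand of chromosome 5, from 147269959 to 147275848. *Nkx6-1* (ENSMUSG00000035187.10) has 3 exons on the minus strand of chromosome 5, from 101658139 to 101664996. *Nkx2-2* (ENSMUSG00000027434.11) is on the minus strand of chromosome 2, from 147177546 to 147194243, and its longest transcript has 2 exons. Neither *Mafa* nor *Nkx6-1* overlaps another annotated gene. *Pdx1* overlaps *Plut*, and *Nkx2-2* overlaps *Nkx2-2os* and *6430503K07Rik*, all on the opposite strand. The library kit keeps the strand, but whether the counting used it is not given in the sources used here, so reads from these partners cannot be told apart.

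Sequence upstream of the start site was examined because the members were higher together under library totals. The RefSeq promoter table (GRCm38.p6) held 3 of the 4 members, without *Mafa*, and the search used the 250 bases before each start. The stretches shown are the bases of each window that overlap no exon in the GENCODE annotation, read 5′ to 3′ on the gene's strand, and capitals mark the 1 motif match found. The *Nkx2-2* stretch lies upstream of the gene's coding transcripts, but in an intron of longer non-coding transcripts of *Nkx2-2* that start further upstream. The *Pdx1* stretch lies before the *Pdx1* start and within *Plut* on the opposite strand. For *Nkx6-1* the whole window lies in the first exon of the GENCODE annotation, so none is shown.
Pdx1, chr5:147269847-147269958, plus strand: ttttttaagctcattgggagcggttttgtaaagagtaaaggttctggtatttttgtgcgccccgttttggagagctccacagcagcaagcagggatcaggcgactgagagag
Nkx2-2, chr2:147186456-147186652, minus strand: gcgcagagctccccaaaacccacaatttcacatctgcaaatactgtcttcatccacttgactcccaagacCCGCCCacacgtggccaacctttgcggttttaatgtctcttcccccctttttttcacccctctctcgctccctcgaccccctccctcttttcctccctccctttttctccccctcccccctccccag

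The motif of STAT factors (TTCNNNGAA, both strands) was in 0 of the 3 windows and in 7.0% of all 32851 promoter windows of the same length. The AP-1 motif (TGANTCA) was in none of the 3 and in 6.7% of all windows, and the homeodomain core (TAATTA) in none of the 3 and in 4.8%. *Nkx2-2* held 1 Sp1-type GC box (GGGCGG, here on the opposite strand), starting 180 bases before the start site, and 32.7% of all windows hold this motif. The TATA box (TATAAA) and the E-box (CAGCTG) were in none of the 3, against 12.4% and 13.0% of all windows. By GC content, the *Nkx6-1* window was the richest of the 3 at 65.2%, above 83.0% of all windows, whereas those of *Pdx1* and *Nkx2-2* were at 54.8% and 56.4%. These matches describe letters in a window and say nothing of binding.

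Expression of all 4 genes was higher with IL-22 when the libraries were scaled by their totals. *Mafa* differed most, at 1.50-fold, followed by *Nkx6-1* at 1.20-fold, *Nkx2-2* at 1.13-fold and *Pdx1* at 1.12-fold. Their median log2 fold change was 0.21, and the median over all 230 listed genes was also 0.21. In edgeR's quasi-likelihood test all 4 had an adjusted p below 0.01 over the table and were higher, as were 81.3% of the listed genes. The share among the members was thus near the background. For *Pdx1* and *Nkx2-2*, the direction turned when the scaling was instead computed over the listed genes, which removes their common shift.

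**Figure D1:**
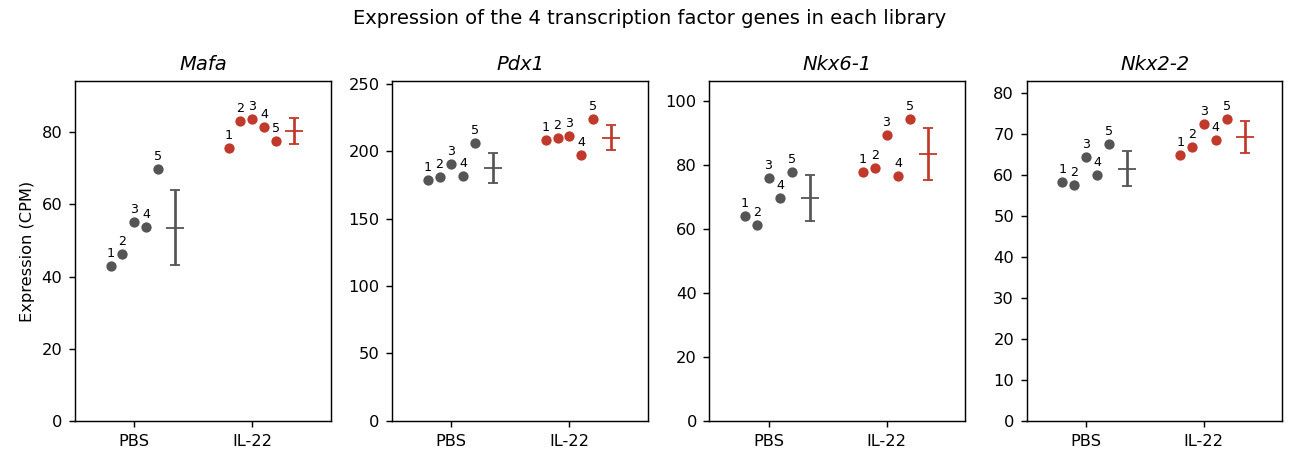
Expression in CPM (vertical axis, from 0) of each transcription factor gene in the 5 PBS (grey) and 5 IL-22 (red) libraries, each point labelled with its library number, with the mean and SD at the right of each group. For *Mafa* the IL-22 libraries, from 75.5 CPM, lie above all PBS libraries, up to 69.7 CPM, while the groups overlap in the other 3 genes and PBS library 5 is the highest PBS library in each panel.

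*Mafa* was at 43.0, 46.3, 55.1, 53.7 and 69.7 CPM in PBS libraries 1 to 5. With IL-22 it was at 75.5, 83.0, 83.7, 81.5 and 77.7 CPM. Each IL-22 library lay above each PBS library, which held for 46.5% of the listed genes, and the IL-22 libraries were also closer together, with a coefficient of variation of 4.42%. The means were 53.6 ± 10.3 CPM (SD, n = 5) and 80.3 ± 3.55 CPM (SD, n = 5). The log2 fold change was 0.58 (SE 0.095, edgeR adjusted p = 0.00023 over the table), and an exact permutation test gave p = 0.00794, two-sided, the smallest that 5 against 5 libraries allow.

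*Nkx6-1* was at 64.0, 61.2, 76.1, 69.8 and 77.7 CPM in PBS libraries 1 to 5, and at 77.8, 79.0, 89.4, 76.6 and 94.5 CPM in the IL-22 libraries. The groups overlapped at a single point, since IL-22 library 4 lay below PBS library 5. The spread was similar in both groups, with a coefficient of variation of 10.3% with PBS and 9.57% with IL-22. The log2 fold change was 0.26 (SE 0.072, edgeR adjusted p = 0.0041, exact permutation p = 0.0159). It lost the 0.01 threshold when PBS library 2, IL-22 library 3 or IL-22 library 5 was left out, with adjusted p up to 0.0127.

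*Nkx2-2* was at 58.3, 57.6, 64.5, 60.0 and 67.7 CPM in PBS libraries 1 to 5, and at 64.9, 66.8, 72.6, 68.7 and 73.8 CPM in the IL-22 libraries. IL-22 libraries 1 and 2 lay below PBS library 5, and all 5 IL-22 libraries lay above the PBS median of 60.0 CPM. The means were 61.6 ± 4.32 CPM (SD, n = 5) and 69.4 ± 3.79 CPM (SD, n = 5). The log2 fold change was 0.17 (SE 0.053, edgeR adjusted p = 0.0063, exact permutation p = 0.0317). Over the 10 fits that each left out 1 library, made without a replicate block, this call was the least stable of the 4. In 6 of them it was above 0.01 (PBS library 1, 2 or 4, or IL-22 library 3, 4 or 5 left out), with edgeR adjusted p up to 0.0199.

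*Pdx1* was at 178.8, 181.0, 190.7, 181.6 and 206.0 CPM in PBS libraries 1 to 5, and at 208.4, 209.9, 211.4, 197.1 and 224.1 CPM in the IL-22 libraries. Here too the overlap came from PBS library 5 and IL-22 library 4, and the remaining PBS libraries lay below all IL-22 libraries. The means were 187.6 ± 11.2 CPM (SD, n = 5) and 210.2 ± 9.60 CPM (SD, n = 5). The log2 fold change was 0.16 (SE 0.043, edgeR adjusted p = 0.0034, exact permutation p = 0.0159), and the call held in each of the 10 fits that left out 1 library.

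By log2 fold change *Mafa* ranked 24 among the 230 listed genes, *Nkx6-1* 74, *Nkx2-2* 143 and *Pdx1* 153. When the p-values were adjusted over the 21951 protein-coding genes of the annotation, on the assumption that genes outside the table have larger p-values than those in it, edgeR put 3.04% of the listed genes below 0.01 and higher. None of the 4 members was among them. All 4 had an unadjusted p under 0.05 in edgeR, as did every listed gene (197 higher and 33 lower). DESeq2 on library totals and limma-voom, adjusted in the same way, each called 1 member, *Mafa*. They called 46 and 11 of the 230 listed genes higher. The edgeR value for *Mafa* was 0.0223 and the values for *Pdx1*, *Nkx6-1* and *Nkx2-2* were 0.324, 0.391 and 0.604. This adjustment can only overstate an adjusted p.

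Levels of different genes were compared per kilobase of the longest annotated transcript. With PBS, *Pdx1* was the highest at 86.9 ± 5.20 CPM per kb (SD, n = 5), and *Nkx2-2* followed at 29.1 ± 2.04 CPM per kb (SD, n = 5). *Nkx6-1* at 22.2 ± 2.30 and *Mafa* at 19.6 ± 3.77 CPM per kb (SD, n = 5) were the lowest, and their libraries overlapped. With IL-22, *Pdx1* stood at 97.4 and *Nkx2-2* at 32.7 CPM per kb, again in this order. *Pdx1* lay clear of *Nkx2-2*, but *Nkx2-2* nearly met *Mafa*. The lowest IL-22 library of *Nkx2-2* was at 30.60 CPM per kb and the highest of *Mafa* at 30.58. The means of *Mafa* and *Nkx6-1* changed places, to 29.3 ± 1.30 and 26.6 ± 2.54 CPM per kb (SD, n = 5), but the values of this pair overlapped under IL-22 as well.

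The ratio of 2 genes within a library does not depend on how the library is scaled, so it shows whether the members moved by the same amount. All 6 ratios were compared between the groups by an exact permutation test, two-sided, with adjustment over the 6. The log2 ratio of *Mafa* to *Pdx1* went from -1.83 ± 0.19 (SD, n = 5) with PBS to -1.39 ± 0.10 (SD, n = 5) with IL-22, and the groups did not overlap (difference 0.44, SE 0.098, exact p = 0.00794, adjusted p = 0.0238). That of *Mafa* to *Nkx2-2* went from -0.22 ± 0.18 to 0.21 ± 0.09 (SD, n = 5), also without overlap (difference 0.43, SE 0.089, exact p = 0.00794, adjusted p = 0.0238). The ratio of *Mafa* to *Nkx6-1* differed by 0.34 (SE 0.096, exact p = 0.0159, adjusted p = 0.0317), with overlap between the groups. Without allowance for base composition, *Mafa* therefore rose relative to each of the 3 homeodomain genes, although the last of these differences lost the 0.05 threshold in 7 of 10 cases when 1 library was left out (PBS libraries 1 to 4 or IL-22 libraries 1 to 3), with adjusted p up to 0.0635. A ratio is free of library scaling but not of the base composition of the library, in which the members differ, and the fits that allow for it are given with the GC index.

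Among the homeodomain genes no ratio passed. *Pdx1* to *Nkx2-2* was nearly constant, at 1.61 ± 0.03 with PBS and 1.60 ± 0.07 with IL-22 on the log2 scale (SD, n = 5), a difference of -0.01 (SE 0.034, exact p = 0.841). The ratio of *Nkx6-1* to *Nkx2-2* differed by 0.09 (SE 0.043, exact p = 0.0714, adjusted p = 0.107), and that of *Pdx1* to *Nkx6-1* by -0.10 (SE 0.057, exact p = 0.143, adjusted p = 0.171). A p above the threshold does not show that these genes responded alike.

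**Figure D2:**
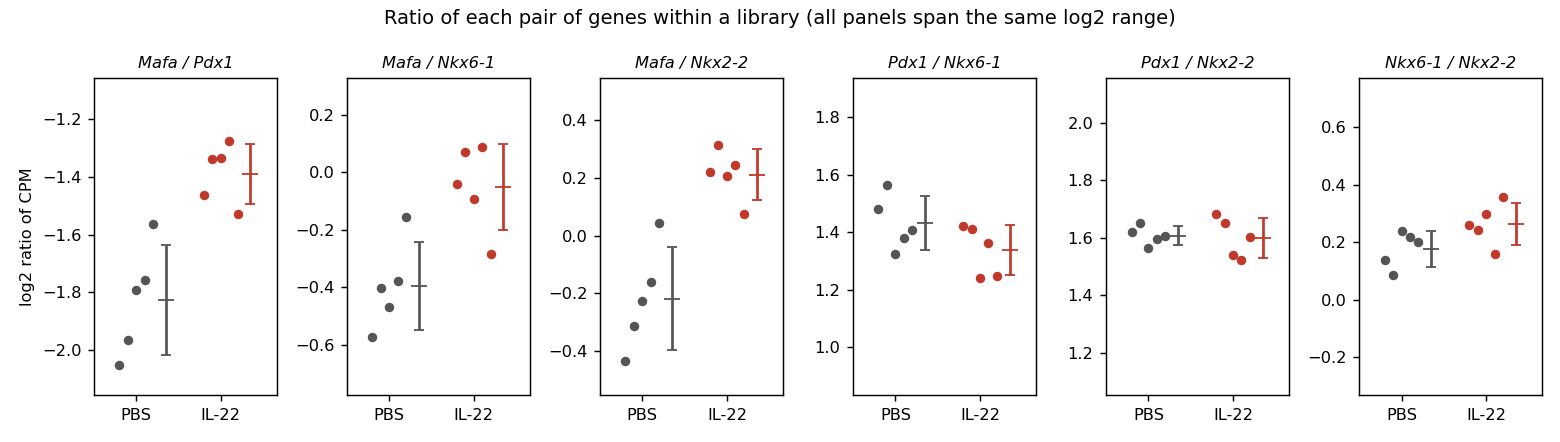
The log2 ratio of CPM of each pair of genes (vertical axis) in the 5 PBS (grey) and 5 IL-22 (red) libraries, with mean and SD at the right of each group and the same log2 span in all panels. The 3 ratios with *Mafa* shift upward with IL-22, by 0.34 to 0.44, while *Pdx1* to *Nkx2-2* stays level.

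The members also varied together between replicate libraries. PBS library 5 was the highest of the PBS libraries in all 4 genes, PBS library 3 was second in all 4, and PBS libraries 1 and 2 were the lowest pair. Once group means were removed, Pearson's r of log2 CPM over the 10 libraries was 0.93 for *Nkx6-1* and *Nkx2-2*, 0.83 for *Pdx1* and *Nkx6-1*, and 0.80 for *Pdx1* and *Nkx2-2*. With *Mafa* it was 0.75 for *Nkx2-2*, 0.67 for *Pdx1* and 0.64 for *Nkx6-1*. The median over all pairs of listed genes was 0.16. These points share libraries and the base composition of each library, and the values are a description.

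A library property moved with the members. Listed genes with GC-rich transcripts were counted relatively more in some libraries than in others, which was expressed as a GC index. For this, each gene's mean log2 CPM over the 10 libraries was taken out. The index is the slope of a library's remaining values on transcript GC content, over the 226 listed genes that are not members. Its sign is thus relative to the average library. The index lay between 0.04 and 0.09 per 10 percentage points of GC in the IL-22 libraries. In the PBS libraries it was -0.16, -0.14, -0.03, -0.08 and 0.08 for libraries 1 to 5, so that PBS library 5 lay within the range of the IL-22 libraries and the others below it. The transcript of *Mafa* is 65.0% GC and ranks 218 of 230 from the lowest. *Nkx6-1* is at 59.0%, and *Pdx1* and *Nkx2-2* are at 55.7%, near the median of 56.8%. With group means removed, r between the index and log2 CPM over the 10 libraries was 0.98 for *Mafa*, 0.77 for *Nkx2-2*, 0.69 for *Pdx1* and 0.64 for *Nkx6-1*, given as a description.

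**Figure D3:**
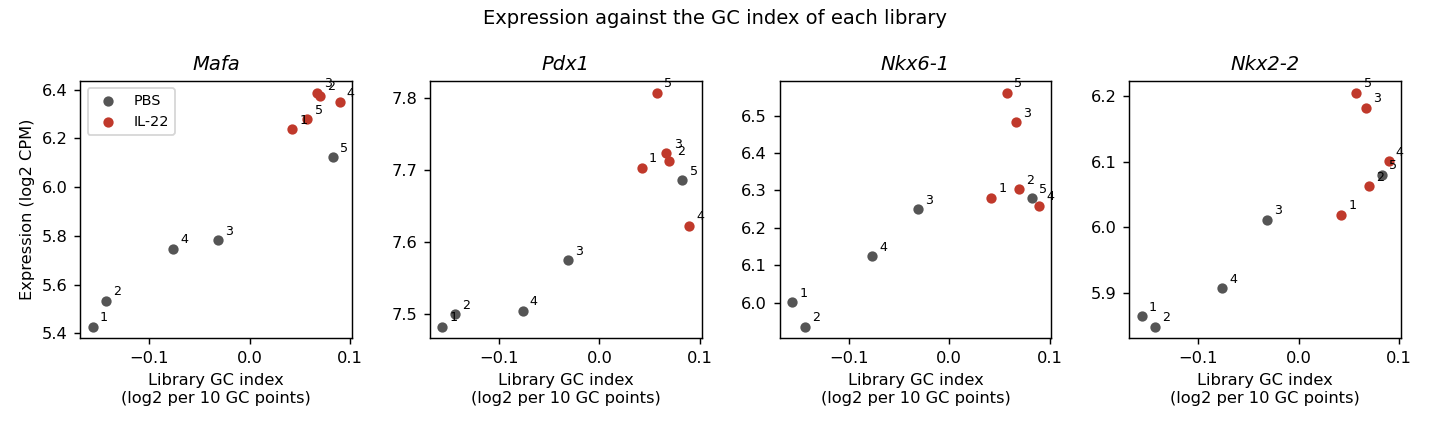
Expression in log2 CPM (vertical axis) of each gene against the GC index of the library (horizontal axis) for the 5 PBS (grey) and 5 IL-22 (red) libraries, labelled with library numbers. PBS libraries 1 and 2 have the lowest index and the lowest expression in each panel, and PBS library 5 has an index of 0.08, within the IL-22 range.

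With the GC index as a covariate in edgeR, 1 of the 4 members was called, *Mafa*, where 13.9% of the listed genes were called higher. The log2 fold change of *Mafa* was then 0.25 (SE 0.052, adjusted p = 0.00095). Those of *Nkx6-1*, *Pdx1* and *Nkx2-2* were 0.09 (SE 0.074), 0.07 (SE 0.047) and 0.04 (SE 0.056), with adjusted p from 0.221 to 0.493. The call for *Mafa* depended on which genes the index was measured on, since with the 113 genes at odd places of the alphabet it was 0.17 (adjusted p = 0.0672) and with those at even places 0.33 (adjusted p = 5.7e-06). The index is computed from genes listed for a difference between these groups, so the index and the treatment cannot be fully told apart. With the index, the estimate for *Mafa* was thus above those of the homeodomain genes by less than without it. With the replicate block and the index together, *Mafa* (log2 fold change 0.25, SE 0.063) and *Nkx6-1* (0.25, SE 0.063) had equal estimates, against 0.12 for *Pdx1* and 0.14 for *Nkx2-2*, so the rise of *Mafa* over *Nkx6-1* was not seen in that fit. The differences between members were not tested in the fits with the index. In the fit without the index, leaving out PBS library 5, whose index lay in the IL-22 range, the log2 fold change of *Mafa* was 0.70 (SE 0.061), and those of *Nkx6-1*, *Nkx2-2* and *Pdx1* were 0.30, 0.21 and 0.20.

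**Figure D4:**
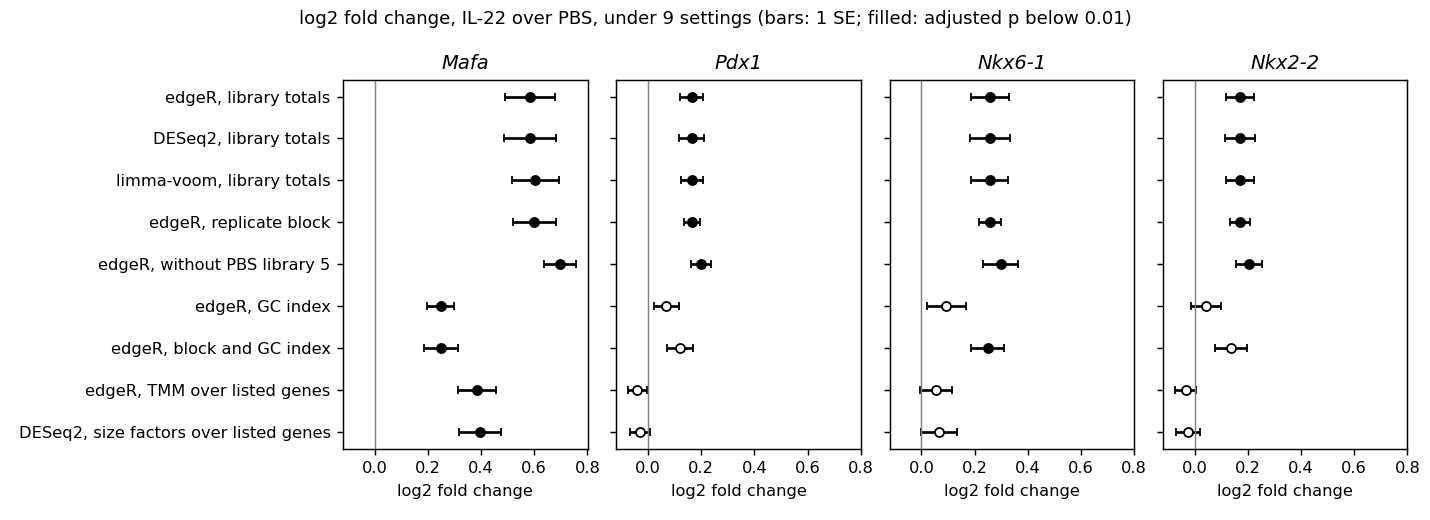
The log2 fold change between IL-22 and PBS, positive where IL-22 is higher (horizontal axis, bars of 1 SE) for each gene under 9 settings, with filled points where the adjusted p over the table was below 0.01. *Mafa* stays above 0 and filled in all 9, while *Pdx1* and *Nkx2-2* lie slightly below 0 under both scalings computed over the listed genes.

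Scaling computed over the listed genes shifted their median log2 fold change from 0.21 to 0.003 with edgeR's TMM factors and to 0.013 with DESeq2's size factors. Relative to that common shift *Mafa* was still higher, at 0.39 and 0.40 (adjusted p = 0.00034 and 2.3e-06). *Nkx6-1* had values of 0.05 and 0.07, *Pdx1* of -0.04 and -0.03, and *Nkx2-2* of -0.03 and -0.02, none below 0.01 after adjustment. On this scale the homeodomain genes lay close to the median listed gene.

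The listed genes that varied most like each member were named by Pearson's r of log2 CPM with group means removed, over the 10 libraries. For *Mafa* they were *Scaf1* (r = 0.97), *Aes* (r = 0.97) and *Pcsk1n* (r = 0.95). For *Pdx1* they were *Snrpa* (r = 0.88), *H2afx* (r = 0.85) and *H2afj* (r = 0.84), for *Nkx6-1* *Gadd45g* (r = 0.91), *Pgp* (r = 0.86) and *Snrpa* (r = 0.84), and for *Nkx2-2* *Snrpa* (r = 0.92), *Nfkbib* (r = 0.87) and *Pcsk1n* (r = 0.87). *Snrpa*, a spliceosome component, thus appeared for each of the 3 homeodomain genes. Of these 9 genes, the log2 fold change with IL-22 ranged from 0.14 for *Aes* to 0.89 for *Pcsk1n*, the inhibitor of a prohormone convertase. *Mafa* had r = 0.98 with the GC index, so its likeness to its listed genes cannot be told apart from the base composition of the libraries. All these values of r are a description.

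Few other genes of the beta-cell program were in the table. Of 16 beta-cell products and markers, 2 were listed, and neither was higher with IL-22. *Slc2a2*, which encodes the glucose transporter GLUT2 and is a known target of *Pdx1*, had a median of 77.3 CPM with PBS (72.6 to 81.0) and 69.2 CPM with IL-22 (64.8 to 74.0). It was lower with IL-22, with a log2 fold change of -0.17 (SE 0.044, edgeR adjusted p = 0.0033), as were 13.5% of the listed genes. With the GC index the call was lost, at a log2 fold change of -0.14 (SE 0.057, edgeR adjusted p = 0.0664). Under the scalings computed over the listed genes the decrease of *Slc2a2* was larger. It was -0.38 with edgeR's TMM factors (adjusted p = 3.0e-05) and -0.37 with DESeq2's size factors (adjusted p = 9.9e-10). Each of these 2 settings called 33 listed genes lower. *Iapp*, which encodes amylin, the peptide released together with insulin, was at 8557 to 9121 CPM with PBS and 8072 to 8859 CPM with IL-22. This beta-cell product was thus abundant in every library. With library totals, its log2 fold change of -0.07 (SE 0.028, edgeR adjusted p = 0.023) did not pass 0.01. Of the other lists, 0 of 29 further beta-cell transcription factors, 0 of 9 markers of other islet cells, 0 of 7 exocrine and duct markers, 0 of 5 immune and stromal markers and 0 of 7 genes tied to dedifferentiation were in the table, so their levels were not analysed here. Of 21 genes on a list drawn up for the IL-22 receptor and the STAT3 response, 5 were in the table. Of these, 4 were called higher, a share near the 81.3% of all listed genes. They were *Stat3*, *Jak3*, *Socs3* and *Junb*, with log2 fold changes of 0.28, 0.38, 0.48 and 0.75. A place on the list does not mean that a gene acts at the IL-22 receptor. *Bcl3* was at 0.33 (SE 0.119, edgeR adjusted p = 0.0148).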

How the data were processed

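Stranded mRNA libraries of MIN6N8 cells (5 PBS, 5 IL-22) were grouped by their titles. The authors deposited whole-number read counts per gene and the same counts as CPM. Build mm10 is in the submitters' processing notes, while the aligner and counting program are not given in the sources used here. Deposited p-values, FDRs, fold changes and mean expression from the authors' comparison were not used, except that all 230 genes were checked to have an FDR below 0.05. Totals per library were derived from the counts and their CPM. In 98.8% of values the CPM equalled count over total within 0.0005.

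Counts were tested with edgeR 4.0.16 (R 4.3.3; quasi-likelihood, library totals as scaling, at least 1 CPM in 5 libraries, which all 230 genes and all 4 members met), with Benjamini-Hochberg adjustment over 230 genes and a threshold of 0.01, the value given with the study's figure. SE was derived from the F statistic. Dispersions came from listed genes only. Alternatives were DESeq2 1.42.0, limma 3.58.1 (voom, and log2(CPM + pseudocount)), TMM, no filter, a replicate block, the GC index, other thresholds and numbers of tests, and leaving out each library. The indices over odd- and even-placed genes were chosen after seeing the data. Permutation tests used scipy 1.17.1 on log2(CPM + 1), or on log2 ratios of CPM. Annotation was GENCODE M21 (220 symbols matched, 10 by another symbol). In simulated data of 230 genes, 65 of 100 genes changed by 0.2 and 98 of 100 changed by 0.4 (log2) were recovered. The simulation used the same dispersion, 0.004, for every gene and changes in both directions. It held no shift shared by the genes of a library, so it can overstate the recovery in these data. Replicates differed beyond counting error (chi-square per gene at least 3.25). Named genes are the members, the listed genes of the fixed lists, and the 3 listed genes most like each member. The members and lists were chosen with earlier results of these data known.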

Additional observations from a re-analysis of the deposited data

Results flagged for a closer look

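The CPM of the 4 members and of 7 other named genes, the 6 ratios, the library totals and the GC index were examined in both groups of 5 libraries. In 3 of these 38 groups 1 library lay far from the rest, where 1.9 would by chance, and none of the 3 concerned a member or a ratio. *Jak3* was at 24.4 CPM in PBS library 1 and at 40.7 CPM in IL-22 library 4. *Socs3* was at 12.8 CPM in PBS library 2.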

How the results depend on the processing

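With DESeq2 on library totals, limma-voom, limma with any pseudocount, no filter or the replicate block alone, all 4 members stayed higher and below 0.01. TMM and DESeq2's size factors over the listed genes gave *Pdx1* -0.041 and -0.030, *Nkx2-2* -0.034 and -0.024, and *Nkx6-1* 0.055 and 0.066. Adjusted over all annotated protein-coding genes, none of *Mafa* (0.58), *Nkx6-1* (0.26), *Nkx2-2* (0.17) and *Pdx1* (0.16) was below 0.01 in edgeR. The GC index gave *Pdx1* 0.068, *Nkx6-1* 0.094 and *Nkx2-2* 0.044. Over odd-placed genes it gave *Mafa* 0.17, *Pdx1* 0.054, *Nkx6-1* 0.062 and *Nkx2-2* 0.014, and over even-placed genes *Pdx1* 0.086, *Nkx6-1* 0.13 and *Nkx2-2* 0.072.

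The members called were 1 with TMM, 1 with DESeq2's size factors, 1 with the GC index, 0 and 1 with the odd and even index, and 0 over annotated genes, against 4. Genes called higher were 187, and 18, 30, 32, 18, 53 and 7 under these settings in turn. Genes called lower were 31, with 33 under TMM and 33 under DESeq2's size factors. With the 3 indices they were 0, 0 and 2 (16, 10 and 30 at an unadjusted p under 0.05 in edgeR). Over annotated genes, edgeR with library totals called 0 lower (33 unadjusted) and DESeq2 with library totals called 3. With the same adjustment TMM called 31 lower and DESeq2's size factors 33. The cause was not tested.

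Over the listed genes, same-numbered libraries deviated from their group means with correlations of 0.30, 0.29, 0.33, -0.16 and -0.31 for replicates 1 to 5. Of the 5 PBS libraries, 3 correlated best with their own number. The labels do not say whether same-numbered libraries are pairs, so the main fit did not take them as pairs. In edgeR the replicate block gave *Mafa* 0.60 (SE 0.081, adjusted p = 0.00024) and *Nkx6-1* 0.26 (SE 0.041, adjusted p = 0.00053). It gave *Nkx2-2* 0.17 (SE 0.037, adjusted p = 0.0024) and *Pdx1* 0.16 (SE 0.031, adjusted p = 0.0011), with 193 genes higher and 32 lower. The block with the GC index gave 2 members called, *Mafa* and *Nkx6-1*, both at 0.25, with *Pdx1* at 0.12, *Nkx2-2* at 0.14, and 30 genes higher and 2 lower.

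With each library left out, *Mafa* ranged from 0.51 to 0.70, *Pdx1* from 0.14 to 0.20, *Nkx6-1* from 0.21 to 0.30 and *Nkx2-2* from 0.15 to 0.21. The members called ranged from 2 to 4, genes higher from 127 to 196 and genes lower from 15 to 32. The ratio differences ranged from 0.38 to 0.50 for *Mafa* to *Pdx1*, 0.30 to 0.40 for *Mafa* to *Nkx6-1*, 0.38 to 0.50 for *Mafa* to *Nkx2-2*, -0.12 to -0.062 for *Pdx1* to *Nkx6-1*, -0.028 to 0.012 for *Pdx1* to *Nkx2-2* and 0.065 to 0.11 for *Nkx6-1* to *Nkx2-2*. The last passed 0.05 without IL-22 library 4 (adjusted p = 0.0317), and *Pdx1* to *Nkx2-2* changed sign in 3 of 10. Adding 1 to the CPM changed no call for a ratio.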
